A study of Mus musculus with 7 samples.

Results

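The genes described here encode the protein components of the cytosolic ribosome, the particle that translates nearly all cellular mRNA. They were chosen by symbol. A gene was a member if its symbol named a large-subunit protein (Rpl with a number), a small-subunit protein (Rps with a number), a protein of the acidic stalk (Rplp0 to Rplp2) or Rpsa, and the Rps6k kinases were left out. This gave 81 of the 23366 gene symbols in the count table, 50 of the large and 31 of the small subunit. A ribosome needs its proteins in equal numbers, and their mRNAs are among the most abundant and most evenly expressed polyadenylated transcripts of growing and secreting cells. Many of these mRNAs begin with a run of pyrimidines, through which mTOR signalling controls their translation. Salivary acinar cells make large amounts of secreted protein, so that a few secretory mRNAs compete with all other transcripts, ribosomal protein mRNAs among them, for a place in the sequenced library. Several members are paralogues (written with a final l) of a canonical member, and in mammals some of these are known mainly from muscle or from male germ cells.

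RNA was sequenced from mouse salivary glands in 3 groups: submandibular gland at postnatal day 18 (P18, n = 2), parotid gland of adult mice aged 12 weeks (n = 3) and parotid gland at P18 (n = 2). No strain, genotype or treatment was used here to distinguish the groups. The samples are labelled as whole tissue, whereas the protocol text speaks of isolated epithelial cells, so what was sampled is not settled by the labels. Nothing in the labels says that the replicates of a group came from separate mice, and a p-value therefore speaks only of the spread among these libraries, possibly a technical one. The adult group did hold RNA of more than 1 mouse, because Xist and the Y-linked Ddx3y stood at opposite levels in replicate 1 and in replicates 2 and 3. In bulk samples such as these, fewer cells of a type and less RNA per cell cannot be told apart.

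Total counts ran from 12844534 to 28856127 per library. The 50 most abundant genes took 47.1% and 48.8% of counts in submandibular gland, 66.3% to 68.9% in adult parotid and 22.5% and 14.4% in P18 parotid. Serous acinar markers such as the amylase gene Amy1 were present in every library, with summed levels of 7801 and 3710 CPM in submandibular gland, 534194 to 643494 CPM in adult parotid and 68272 and 19638 CPM in P18 parotid. The genes of this list differed in direction: Amy1 itself had 2.84 and 23.6 CPM in submandibular gland, 143166 to 165400 CPM in adult parotid and 3512 and 1981 CPM in P18 parotid. The parotid sums were mostly Bpifa2, another gene of the list. It had 81.1 and 263 CPM in submandibular gland, 367998 to 499752 CPM in adult parotid and 64437 and 17559 CPM in P18 parotid. The listed genes Aqp5 and Bhlha15 were higher in both submandibular libraries than in both P18 parotid libraries. The submandibular sum was mostly Prol1, a gene of a secreted proline-rich protein, with 7062 and 2769 CPM in submandibular gland, 66.5 to 91.4 CPM in adult parotid and 1.32 and 0.358 CPM in P18 parotid. CPM here are library-size-scaled counts, adjusted by edgeR's TMM factors, which correct for the few genes that dominate a library. All 7 skeletal muscle markers together reached 2.96 and 49.1 CPM in submandibular gland, 572 to 5047 CPM in adult parotid and 1266 and 6108 CPM in P18 parotid, and the 6 adipocyte markers reached 24.7 and 28.9 CPM in submandibular gland, 2238 to 2773 CPM in adult parotid and 2501 and 8792 CPM in P18 parotid. Adult replicate 1 stood apart from the other adult libraries by its sex-linked transcripts, with 2774 counts of Xist against 3 and 9 in adult replicates 2 and 3, and with 0 counts of the Y-linked Ddx3y against 1203 and 1606 there. P18 parotid replicate 2 stood apart from replicate 1 by its higher muscle and adipocyte marker sums.

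Most members were abundant and kept a common rank order in every library. On the TPM scale, which divides each count by gene length and so allows genes to be compared, 74 members averaged 69.5 to 2195 TPM over the 7 libraries. The highest were Rplp1, a protein of the stalk that recruits elongation factors, with 2195 TPM, and Rpl41, the shortest ribosomal protein, with 2031 TPM. Rpl10, a large-subunit protein joined late in assembly, followed with 1669 TPM. The small-subunit genes Rps4x, Rps12 and Rps18 averaged 1476, 1459 and 1261 TPM. Between any pair of libraries the Spearman correlation of TPM over the 81 members lay between 0.873 and 0.994, a description of genes measured in the same libraries. The lowest value was that of P18 parotid replicate 2 with adult parotid replicate 1, and the highest was reached within the submandibular pair and by adult replicates 2 and 3. Rps15a averaged only 69.5 TPM, but the gene length implied by the deposited tables was 7.30 times that of the median member. Its counts were not low: it averaged 232 ± 22.9 CPM in submandibular gland, 285 ± 90.9 CPM in adult parotid and 168 ± 28.4 CPM in P18 parotid (SD, n = 2, 3 and 2).

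**Figure D1:**
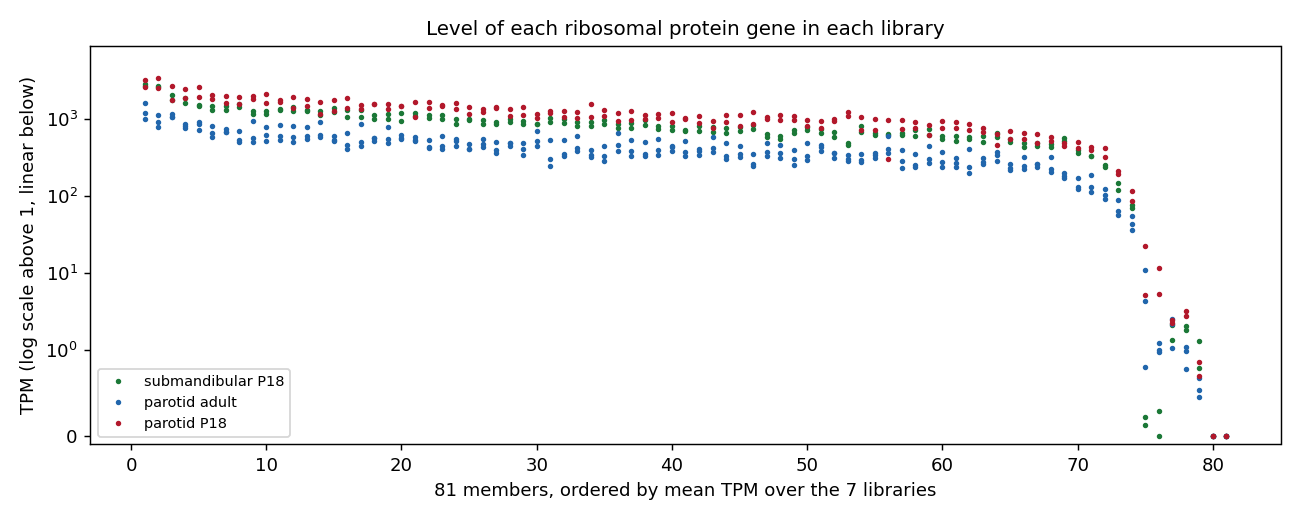
TPM (vertical axis, logarithmic above 1 and linear below) of each of the 81 members in each of the 7 libraries, ordered from left to right by the mean over all libraries. Points of adult parotid lie lowest for most of the 74 abundant members, and 7 members at the right sit near or at 0.

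The other 7 members were at or near 0. Of these, 3 are paralogues expected to be sparse outside particular tissues: Rpl10l, known from mouse testis, had 0 counts in all 7 libraries, and Rpl39l and Rpl3l averaged 2.97 and 6.37 TPM. The remaining 4 are canonical proteins found in every ribosome. Rpl26 was listed at 0 counts in all 7 libraries, which allows up to 3 counts in each. Rpl30 had 5 and 7 counts in submandibular gland, 4, 6 and 10 counts in adult parotid and 3 and 4 counts in P18 parotid. Rps27 had 12 and 9 counts in submandibular gland, 8, 8 and 15 counts in adult parotid and 11 and 14 counts in P18 parotid. Rpl34 had 13 and 7 counts in submandibular gland, 9, 23 and 36 counts in adult parotid and 10 and 10 counts in P18 parotid. These values are far below those of every other canonical member in all 3 groups, so that for these 4 genes the deposited table does not give a level comparable with that of the rest. Rpl26, Rpl30 and Rpl10l did not pass the expression filter, and 78 members, 47 of the large and 31 of the small subunit, were tested.

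Ribosomal protein genes have many processed pseudogenes, and reads that match several places can be split or lost in counting. How the authors' counting treated such reads is not stated. As a measure of this, each member's principal transcript (GENCODE vM21, build GRCm38) was cut into all its stretches of 50 bases, and the share found in transcripts of any other annotated gene was counted. The median share was 53.6% over the 81 members, 78 members shared at least some stretches, and 5 shared more than 90%. Rps27 had the highest share, 98.7%, and Rpl30, Rpl26 and Rpl34 had 76.4%, 71.3% and 37.9%. The 40 members with more than 50% and up to 90%, Rpl30 and Rpl26 among them, had a median of 741 TPM. The 33 members with more than 0% and up to 50%, Rpl34 among them, had a median of 649 TPM. Across members the Spearman correlation of the shared percentage with mean TPM was 0.142. These shares use neither the genome build nor the settings of the authors' counting. The part of shared stretches in the low counts of Rps27, Rpl30, Rpl26 and Rpl34 was not tested. Values of members that share stretches with other genes are uncertain between the copies. Rpl3l and Rpl39l shared none.

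**Figure D2:**
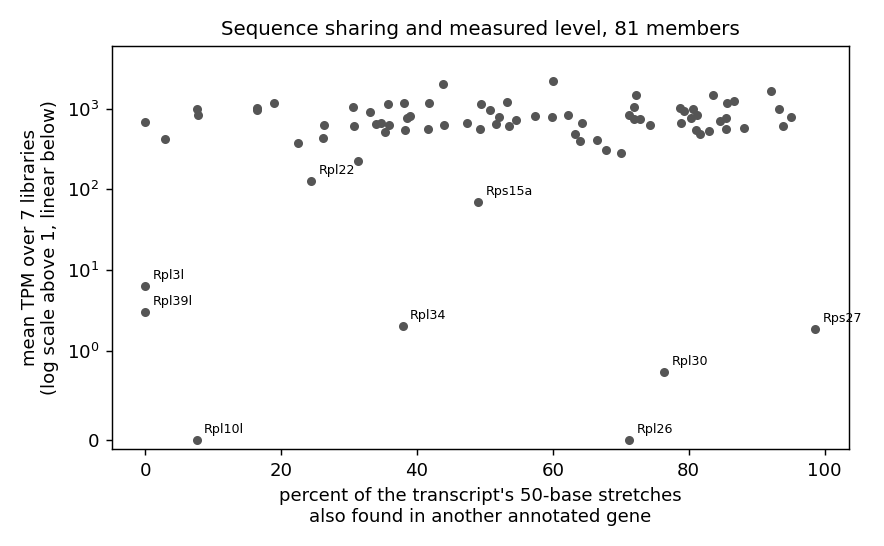
Mean TPM over the 7 libraries (vertical axis, logarithmic above 1 and linear below) against the percentage of 50-base stretches that also occur in another annotated gene, for 81 members. Rps27, Rpl30, Rpl26 and Rpl34 lie near 0 at shares of 98.7%, 76.4%, 71.3% and 37.9%, while most other members at like shares are far higher.

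As a class, the members took a smaller part of the adult parotid libraries than of the P18 libraries. They held 3.25% (95% Wilson interval 3.24 to 3.26) and 3.56% (3.55 to 3.57) of counts in submandibular gland. In adult parotid they held 2.64% (2.63 to 2.65), 1.97% (1.96 to 1.97) and 1.80% (1.79 to 1.80). In P18 parotid they held 4.03% (4.02 to 4.04) and 3.16% (3.16 to 3.17). These intervals reflect counting error alone, as sequenced reads can be copies of a molecule, and the spread between replicates was wider than any of them. The adult libraries lay below all 4 P18 libraries, and the submandibular libraries lay between the P18 parotid libraries. On the TPM scale the members held 6.78% ± 0.476 in submandibular gland, 3.35% ± 0.583 in adult parotid and 8.90% ± 1.24 in P18 parotid (SD, n = 2, 3 and 2), and no groups overlapped.

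The order of the groups was another when the most abundant genes were left out. The 50 most abundant genes included 2 members, Rpl4 and Rplp0. Without the 50, the other 79 members held 5.69% and 6.46% of the remaining counts in submandibular gland, 7.99%, 5.51% and 4.99% in adult parotid, and 4.86% and 3.47% in P18 parotid. The summed CPM on the TMM scale was taken over all 81 members, with no gene left out. It was 31905 ± 3439 in submandibular gland, 31283 ± 8764 in adult parotid and 21971 ± 2152 in P18 parotid (SD, n = 2, 3 and 2). On this scale P18 parotid was lowest in every library, and adult replicate 1, with 41306 CPM, was above adult replicates 2 and 3 with 27483 and 25060 CPM. The sign of the class differs with the scale. The median log2 difference over all genes was negative on both the TMM and the plain scale, but its size differed. It was -0.07 with TMM and -0.67 with plain library sizes for submandibular gland minus P18 parotid. For adult minus P18 parotid it was -0.008 and -1.24. With plain library sizes all genes shift by a median of -0.61 (log2) in the former comparison and by -1.24 in the latter. Differences below are on the TMM scale unless another is named, and are to be read relative to that shift.

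**Figure D3:**
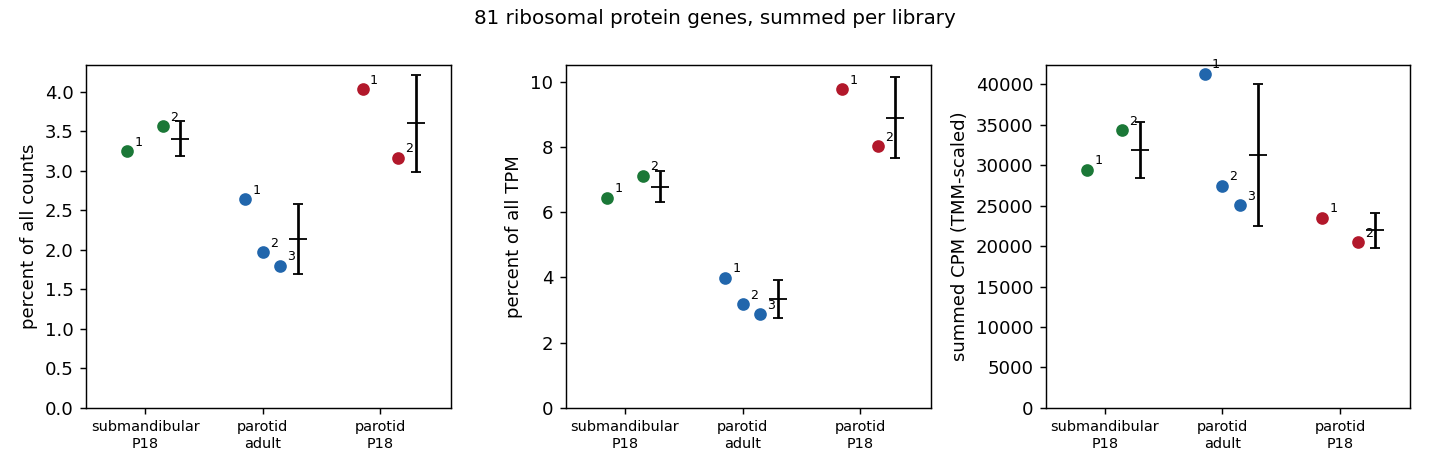
Summed level of the 81 members in each library (numbered points) as percent of all counts, percent of all TPM and summed TMM-scaled CPM, for submandibular P18, adult parotid and P18 parotid; bars give the mean ± SD of each group. Adult parotid is lowest in the first and second panels, and P18 parotid is lowest in the third.

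The series title names the comparison of both glands, made here at P18. Submandibular gland differed from parotid in 4 of the 78 members tested, and all 4 were paralogue forms: Rpl36al and Rps27l rose, and Rpl3l and Rpl39l fell (edgeR's quasi-likelihood test, Benjamini-Hochberg adjusted p under 0.05 over all genes). That is 2 higher, where 10.2% of all 15129 genes tested were higher, and 2 lower, where 14.2% of all genes were lower. A further 5 members had an unadjusted p under 0.05, which makes 9 in all. The members nevertheless lay close together. Their median log2 difference was 0.53, with the middle 50% between 0.41 and 0.66, beside a median of -0.07 over all genes tested. Among genes with a mean of at least 50 CPM the medians were 0.54 for 74 members and 0.13 for all 2548 genes. The difference was positive in 75 members and negative in 3, and the CPM of both groups did not overlap for 75 members, against 64.9% of all genes tested. With plain library sizes the members' median was -0.08 and 54 members were negative, while the median of all genes was -0.67.

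**Figure D4:**
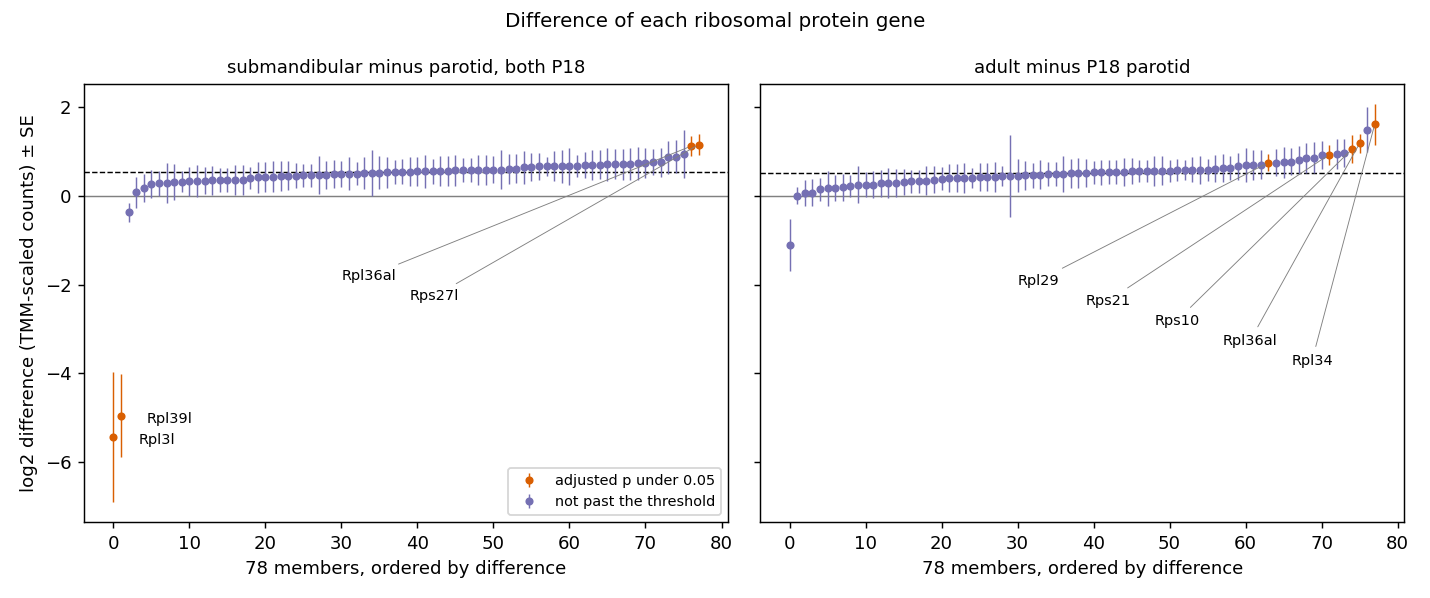
Log2 difference of each of the 78 tested members with its standard error, ordered by size, for submandibular minus parotid at P18 (left) and adult minus P18 parotid (right); the dashed line is the median of the members and orange points have an adjusted p under 0.05. Most members lie within a narrow band around 0.53 and 0.51, and the labelled members lie outside it or have small errors.

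Rpl36al is an autosomal copy of the X-linked Rpl36a, and both encode nearly the same large-subunit protein. It had 182 and 218 CPM in submandibular gland against 104 and 81.3 CPM in P18 parotid. Both submandibular libraries were above both parotid libraries, and the log2 difference was 1.11 ± 0.22 (SE, adjusted p = 0.0142, edgeR). Its partner Rpl36a had 183 and 205 CPM in submandibular gland against 148 and 122 CPM in P18 parotid, a log2 difference of 0.52 ± 0.35 that did not pass the test (adjusted p = 0.31, edgeR). As a ratio of TPM, Rpl36al to Rpl36a was 0.938 and 1.01 in submandibular gland, 0.724, 1.31 and 1.47 in adult parotid, and 0.665 and 0.629 in P18 parotid. The autosomal copy thus reached or passed the level of the X-linked gene in submandibular replicate 2 and in adult replicates 2 and 3, and was below it in the other libraries. The coding sequences of the pair are 87.9% identical, and 63.3% of the stretches of Rpl36al and 85.5% of those of Rpl36a occur in other genes, so the values of both are uncertain between copies.

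Rps27l encodes a small-subunit protein close to Rps27 and is known as a target of p53. It had 146 and 167 CPM in submandibular gland against 65.8 and 75.8 CPM in P18 parotid. Both submandibular values lay above both parotid values, and the log2 difference was 1.14 ± 0.24 (SE, adjusted p = 0.016, edgeR). On the TPM scale the submandibular libraries had 525 and 571 TPM against 457 and 489 TPM in P18 parotid. Since canonical Rps27 was near 0 in all libraries, the pair's coding sequences (GENCODE vM21, GRCm38; Rps27l on chromosome 9 and Rps27 on chromosome 3) are shown to let their difference be seen. Capitals mark the bases at which they differ.
Rps27l: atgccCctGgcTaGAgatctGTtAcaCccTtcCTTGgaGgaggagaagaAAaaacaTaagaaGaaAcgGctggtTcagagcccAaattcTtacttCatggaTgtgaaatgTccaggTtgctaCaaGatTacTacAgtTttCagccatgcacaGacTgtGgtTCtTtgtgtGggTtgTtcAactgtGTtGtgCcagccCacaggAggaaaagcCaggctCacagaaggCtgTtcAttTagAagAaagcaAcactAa
Rps27: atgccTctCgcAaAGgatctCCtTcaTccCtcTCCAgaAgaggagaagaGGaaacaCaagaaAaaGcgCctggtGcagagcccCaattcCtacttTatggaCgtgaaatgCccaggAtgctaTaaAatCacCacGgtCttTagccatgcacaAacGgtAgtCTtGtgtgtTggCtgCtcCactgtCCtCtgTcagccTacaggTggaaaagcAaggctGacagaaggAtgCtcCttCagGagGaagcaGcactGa
Both are 255 bases long and 76.1% identical, with 61 differing bases, and the longest stretch without a difference is 11 bases. A stretch of 50 coding bases therefore tells Rps27l and Rps27 apart, and 22.4% of the stretches of Rps27l occur in any other annotated gene.

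Relative to the other members these gains were smaller. When the libraries were scaled to the members' own summed counts, Rpl36al differed by 0.58 ± 0.40 and Rps27l by 0.59, and neither passed the test (adjusted p = 0.317 and 0.268, edgeR). With plain library sizes the differences were 0.49 and 0.54 and also missed the threshold (adjusted p = 0.137 and 0.066, edgeR). All 4 calls of this comparison needed both submandibular libraries, as did most calls over all genes. When either was left out, the lone library was assumed to vary like the other groups. The members' median log2 difference was then 0.67 (without replicate 1) and 0.41 (without replicate 2), beside -0.09 and -0.06 over all genes. Leaving out P18 parotid replicate 2 ended the call of Rpl3l (adjusted p = 0.115, edgeR), as did leaving out adult replicate 2 (adjusted p = 0.0601, edgeR). Without P18 parotid replicate 1 there were 9 calls, beside 15.6% of all genes higher and 19.3% lower. Without P18 parotid replicate 2 and adult replicate 1 together there were 26 higher and 2 lower, beside 19% of all genes higher and 21% lower.

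Rpl3l replaces Rpl3 in ribosomes of skeletal and heart muscle. It had 0.118 and 0.220 CPM in submandibular gland against 2.59 and 12.2 CPM in P18 parotid, and adult parotid had 1.76, 7.89 and 20.0 CPM. Both submandibular values were below every parotid value, and the log2 difference was -5.43 ± 1.47 (SE, adjusted p = 0.0354, edgeR). In counts this was 5 over both submandibular libraries against 329 in P18 parotid, a parotid to submandibular ratio of 45.3 (95% exact Poisson interval 19.2 to 141). That interval reflects counting error in the pooled libraries alone. It leaves out the spread between replicates, which had 57 and 272 counts in P18 parotid. Skeletal muscle markers were ordered like Rpl3l within each group. Their summed level was 2.96 and 49.1 CPM in submandibular gland, 572, 1348 and 5047 CPM in adult parotid, and 1266 and 6108 CPM in P18 parotid, for replicates 1, 2 and, where present, 3. In submandibular gland 6 of these 7 markers fell. Their part in the result was not tested. Canonical Rpl3, which lies close to the peptidyl transferase centre, had 662 and 787 CPM in submandibular gland against 662 and 481 CPM in P18 parotid (0.34 ± 0.33, adjusted p = 0.481, edgeR). Rpl3l amounted to 0.0153% and 0.0238% of the TPM of Rpl3 in submandibular gland, 0.199%, 1.27% and 3.37% in adult parotid, and 0.333% and 2.16% in P18 parotid.

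Rpl39l is known in mice mainly from male germ cells, where it can take the place of the X-linked Rpl39. It had 0 and 2 counts in submandibular gland, equal to 0 and 0.146 CPM, against 1.36 and 3.18 CPM in P18 parotid. The parotid to submandibular ratio was 34.8 (95% exact Poisson interval 9.38 to 291, for counting error alone). The fitted log2 difference of -4.95 ± 0.94 (SE, adjusted p = 0.0124, edgeR) depends on how a library without counts is handled. Adult parotid had 1.37, 0.891 and 0.917 CPM, between both other groups apart from replicate 1, which was level with P18 parotid replicate 1. The adult minus P18 difference of -1.12 ± 0.59 did not pass the test (adjusted p = 0.188, edgeR). Canonical Rpl39 stood at 255 and 331 CPM in submandibular gland against 189 and 182 CPM in P18 parotid, and Rpl39l amounted to at most 0.857% of its TPM in any library. The pair's coding sequences (GENCODE vM21, GRCm38; Rpl39l on chromosome 16 and Rpl39 on chromosome X) show how readily they can be told apart, again with differing bases in capitals.
Rpl39l: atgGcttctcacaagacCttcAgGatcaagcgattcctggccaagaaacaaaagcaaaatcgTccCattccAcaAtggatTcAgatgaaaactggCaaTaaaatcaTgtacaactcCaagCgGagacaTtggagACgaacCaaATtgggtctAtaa
Rpl39: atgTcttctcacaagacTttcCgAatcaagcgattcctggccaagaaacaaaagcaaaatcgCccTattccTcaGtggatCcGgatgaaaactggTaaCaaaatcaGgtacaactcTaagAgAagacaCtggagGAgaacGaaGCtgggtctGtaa
They are 156 bases long and 85.3% identical, with 23 differing bases and a longest shared stretch of 38 bases. No stretch of 50 bases of the Rpl39l transcript occurs in another annotated gene.

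**Figure D5:**
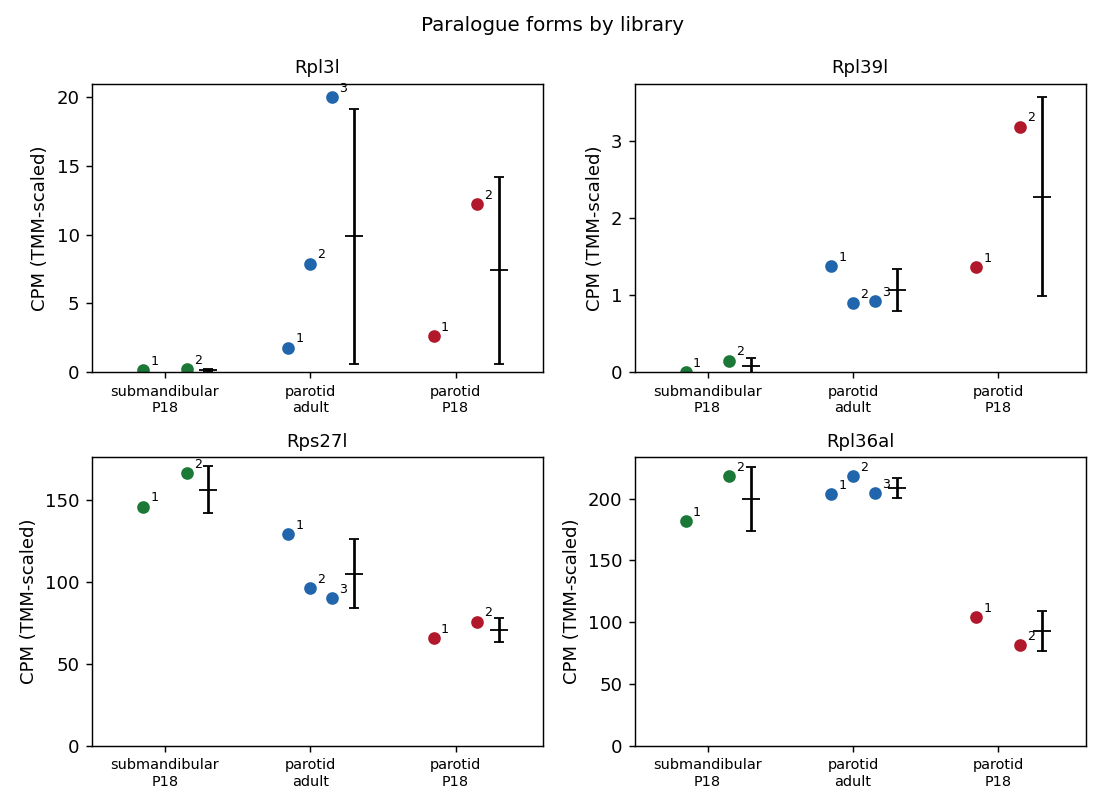
TMM-scaled CPM of Rpl3l, Rpl39l, Rps27l and Rpl36al in each library (points numbered by replicate) for submandibular P18, adult parotid and P18 parotid; bars give the mean ± SD of each group. Rpl3l and Rpl39l are near 0 in both submandibular libraries, and Rps27l and Rpl36al are higher there than in P18 parotid.

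No canonical member passed edgeR's test in submandibular gland, where 5 had an unadjusted p under 0.05, while DESeq2 called 12 members in all, 8 of them canonical, beside 12.7% of all genes higher and 17.2% lower by DESeq2. The nearest was Rpl29, a large-subunit protein, with 193 and 219 CPM in submandibular gland against 144 and 116 CPM in P18 parotid, a log2 difference of 0.66 ± 0.21 (adjusted p = 0.0604, edgeR). Both stalk proteins Rplp1 and Rplp2, which sit on the ribosome as a pair, lay near opposite ends of the range. Rplp1 had 816 and 804 CPM in submandibular gland against 471 and 413 CPM in P18 parotid, a log2 difference of 0.87 ± 0.37 (adjusted p = 0.128, edgeR). Rplp2 had 124 and 135 CPM in submandibular gland against 153 and 183 CPM in P18 parotid, the sole canonical member with a negative difference, at -0.38 ± 0.21 (adjusted p = 0.238, edgeR). For each of these genes the groups did not overlap, but neither stalk gene passed the test. Rps16, a small-subunit protein, had 230 and 250 CPM in submandibular gland against 189 and 63.0 CPM in P18 parotid, where replicate 2 was far below replicate 1 (0.93 ± 0.54, adjusted p = 0.249, edgeR). Rpl41 had 723 and 739 CPM in submandibular gland against 483 and 387 CPM in P18 parotid, Rpl10 841 and 1029 CPM in submandibular gland against 677 and 474 CPM in P18 parotid, and Rps4x 870 and 1043 CPM in submandibular gland against 668 and 548 CPM in P18 parotid, all without overlap and with adjusted p of 0.14, 0.171 and 0.161 (edgeR).

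Between adult and P18 parotid, the labelled ages of that gland, 5 of the 78 members rose and 0 fell (edgeR, adjusted p under 0.05), beside 10.7% of all genes tested higher and 15.1% lower. A total of 16 members had an unadjusted p under 0.05, and DESeq2 called 17 higher and 0 lower, beside 14.6% of all genes higher and 18% lower by DESeq2. The 5 were Rpl36al, Rps21, Rpl29, Rps10 and Rpl34. The median log2 difference of the members was 0.51, beside -0.01 over all genes tested, with 76 members positive and 2 negative. The CPM of both ages did not overlap for 46 members, 59.0%, beside 54% of all genes tested. Both comparisons share the P18 parotid libraries, so their values are not independent. On other scales the members' median was negative, as was that of all genes. With plain library sizes it was -0.75 for the members and -1.24 for all genes, and 48 members were called lower and 0 higher, beside 71.3% of all genes lower and 1.1% higher. On log2(TPM + 1) with limma it was -1.41 for the members and -1.48 for all genes, and 75 members were called lower, beside 85.7% of all genes. The members' median lay above that of all genes on both scales, by 0.49 with plain library sizes, 0.07 on log2(TPM + 1) and 0.52 with TMM.

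Rpl36al again had separate groups, with 204, 218 and 204 CPM in adult parotid against 104 and 81.3 CPM in P18 parotid. The log2 difference was 1.17 ± 0.21 (SE, adjusted p = 0.00967, edgeR), it was called whichever library was left out, and it was -0.08 with plain library sizes, above the all-gene median of -1.24 on that scale. The adult libraries were close to one another here, although adult replicate 1 was higher than the others for nearly all other members. Rpl36a, in contrast, had 266 CPM in adult replicate 1 and 157 and 131 CPM in replicates 2 and 3, against 148 and 122 CPM in P18 parotid, so the groups overlapped (0.45 ± 0.32, adjusted p = 0.315, edgeR).

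Rps21, a small-subunit protein, had 246, 191 and 172 CPM in adult parotid against 115 and 99.5 CPM in P18 parotid, a log2 difference of 0.92 ± 0.23 (adjusted p = 0.0263, edgeR). Rpl29 had 231, 210 and 211 CPM in adult parotid against 144 and 116 CPM in P18 parotid, a log2 difference of 0.74 ± 0.20 (adjusted p = 0.033, edgeR). Rps10, a small-subunit protein near the mRNA entry channel, had 458, 278 and 248 CPM in adult parotid against 172 and 148 CPM in P18 parotid, a log2 difference of 1.04 ± 0.31 (adjusted p = 0.0472, edgeR). All adult values of these 3 genes were above all P18 values, but with plain library sizes the differences were -0.34 for Rps21, -0.51 for Rpl29 and -0.23 for Rps10, each above the all-gene median of -1.24. Without adult replicate 1, Rps21 kept its call at 0.76 (adjusted p = 0.0454, edgeR), while Rpl29 at 0.69 and Rps10 at 0.72 missed it (adjusted p = 0.0619 and 0.0648, edgeR). Leaving out other libraries, Rps21 lost its call without P18 parotid replicate 2, adult replicate 2 or either submandibular library. Rpl29 kept its call without either P18 parotid library and lost it without any other, and Rps10 kept its call only without P18 parotid replicate 1. Over these fits the comparison called 1 to 9 members, and without P18 parotid replicate 2 and adult replicate 1 together it called 11, all higher, beside 21.8% of all genes higher.

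Rpl34, the lowest of the called members, rose at a depth of a few counts. Its 68 counts over the adult libraries against 20 over P18 parotid gave a ratio of 3.23 (95% exact Poisson interval 1.94 to 5.62) and a log2 difference of 1.60 ± 0.46 (adjusted p = 0.0413, edgeR). The interval reflects counting error alone and leaves out the spread between the adult libraries, with 9, 23 and 36 counts. The call was lost when any library other than adult replicate 1 was left out, with adjusted p of 0.0762 to 0.124 (edgeR). Rps16 had a larger difference than most called members, with 514, 286 and 256 CPM in adult parotid against 189 and 63.0 CPM in P18 parotid. It did not pass the test, and its P18 libraries lay far apart (1.48 ± 0.51, adjusted p = 0.0701, edgeR). Rps27l had 129, 96.3 and 90.2 CPM in adult parotid against 65.8 and 75.8 CPM in P18 parotid, without overlap, and missed the threshold as well (0.57 ± 0.22, adjusted p = 0.0895, edgeR). The lowest differences were those of Rpl39l, Rplp2 and Rps23, which lines the decoding centre. Rplp2 had 183, 174 and 146 CPM in adult parotid against 153 and 183 CPM in P18 parotid, and Rps23 differed by 0.06 ± 0.29 (adjusted p = 0.894, edgeR). Rpl3l had 1.76, 7.89 and 20.0 CPM in adult parotid against 2.59 and 12.2 CPM in P18 parotid, with overlapping groups (0.44 ± 0.92, adjusted p = 0.743, edgeR).

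Much of the spread within a group was common to the members. Adult replicate 1 was above adult replicate 2 in 75 of 78 members, by a median of 0.64 on the log2 CPM scale, and above replicate 3 in 75 of 78, by 0.76. Adult replicates 2 and 3 differed by a median of 0.14. Submandibular replicate 1 was above replicate 2 in only 3 of 78 members (median -0.23), and P18 parotid replicate 1 was above replicate 2 in 63 of 78 (median 0.17). Marker sums of other cell types also differed between these libraries. B and plasma cell markers summed to 0.178 and 0.513 CPM in submandibular gland, 409, 228 and 163 CPM in adult parotid and 96.8 and 15.5 CPM in P18 parotid. T cell markers summed to 2.90 and 1.83 CPM in submandibular gland, 205, 94.2 and 86.5 CPM in adult parotid and 79.8 and 16.6 CPM in P18 parotid. Adult replicate 1 was thus the highest adult library for both lists, and P18 parotid replicate 1 the higher of its pair. Macrophage markers summed to 69.8 and 81.1 CPM in submandibular gland, 333, 271 and 261 CPM in adult parotid and 114 and 171 CPM in P18 parotid. Endothelial markers summed to 100 and 90.5 CPM in submandibular gland, 242, 186 and 189 CPM in adult parotid and 313 and 629 CPM in P18 parotid. Duct markers summed to 3579 and 3400 CPM in submandibular gland, 1797, 2873 and 3184 CPM in adult parotid and 323 and 104 CPM in P18 parotid. These sums were mostly Klk1, which had 1685, 2764 and 3063 CPM in adult parotid. Adult replicate 1 was the lowest adult library for Klk1, Krt7, Scnn1a and Foxi1. The remaining duct marker, Krt19, went the other way, with 34.0, 10.6 and 9.03 CPM in adult parotid. The part of these cell types in the spread of the members was not tested. Over all genes the medians of the pairs of replicates lay between -0.013 and 0.018. Without adult replicate 1 the members' median for adult minus P18 parotid was 0.25, with 63 of 78 positive. Scaling to the members' summed counts takes out their common level. On that scale 0 members were called between the ages, with 2 at an unadjusted p under 0.05, beside 2.7% of all genes higher and 21% lower. In submandibular gland Rpl3l and Rpl39l were called lower, beside 2.84% of all genes higher and 21.1% lower.

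The subunits had like medians. In submandibular gland minus P18 parotid the median log2 difference was 0.54 for 47 large-subunit members and 0.50 for 31 small-subunit members, and in adult minus P18 parotid 0.50 and 0.51. The summed TPM of the large subunit was 1.497 ± 0.00212 times that of the small subunit in submandibular gland, 1.40 ± 0.00923 times in adult parotid and 1.43 ± 0.0155 times in P18 parotid (SD, n = 2, 3 and 2). The ratios of single libraries ran from 1.496 to 1.499 in submandibular gland, from 1.388 to 1.407 in adult parotid and from 1.42 to 1.44 in P18 parotid, so that no groups overlapped. The difference between these ratios was not tested. Between adult and P18 parotid the CPM did not overlap for 23 of 47 large-subunit members (48.9%) and 23 of 31 small-subunit members (74.2%), beside the 54% of all genes. The 4 X-linked members Rpl10, Rpl36a, Rpl39 and Rps4x, of which 0 passed the test in either comparison, had median differences of 0.66 and 0.60. Rpl39 had 465 CPM in adult replicate 1, the library with high Xist, and 223 and 204 CPM in adult replicates 2 and 3, against 189 and 182 CPM in P18 parotid. In adult parotid the other X-linked members had 1289, 971 and 970 CPM (Rpl10), 1028, 809 and 780 CPM (Rps4x) and 266, 157 and 131 CPM (Rpl36a). Adult replicate 1 was also the highest adult library for autosomal Rplp1, with 1046, 640 and 536 CPM in adult parotid against 471 and 413 CPM in P18 parotid. The part of sex in these values was not tested.

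The start sites of the members were examined for shared letters. Any link of these letters to the differences between groups was not tested. RefSeq promoter sequences (GRCm38.p6, 250 bases before to 50 after the annotated start) were matched by symbol for 61 members. A run of at least 7 pyrimidines (C or T) on the coding strand, touching the 5 bases on either side of the start, was found in 28 of 61 members (45.9%), against 16.4% of 27025 genes. The letters CCGGAAG, read by ETS factors such as GABP, occurred on either strand in 25 members (41.0%), against 9.93% of genes. TATAAA occurred in 6 members (9.84%), against 15.7%, and AAGATGGC, a core read by YY1, in 5 members (8.20%), against 3.19%. These are matches of letters, and the annotated start need not be the one used in salivary gland. The 60 bases around the start are shown for the called members apart from Rpl29 and Rpl34, and for Rps27 as a canonical form. Rpl29 had no entry, and no window was prepared for Rpl34. The longest pyrimidine run at the start is in capitals.
Rps10, chr17:27635215-27635274, minus strand: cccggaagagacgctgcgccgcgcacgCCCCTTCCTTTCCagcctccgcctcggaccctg
Rps21, chr2:180257349-180257408, plus strand: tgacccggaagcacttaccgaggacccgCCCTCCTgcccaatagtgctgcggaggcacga
Rps27l, chr9:66946056-66946115, plus strand: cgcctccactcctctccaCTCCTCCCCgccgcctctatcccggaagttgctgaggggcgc
Rps27, chr3:90213619-90213678, minus strand: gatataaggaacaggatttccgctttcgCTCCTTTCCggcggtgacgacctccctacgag
Rpl36al, chr12:69184038-69184097, minus strand: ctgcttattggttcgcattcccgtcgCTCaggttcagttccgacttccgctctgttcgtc
Rpl39l, chr16:10170198-10170257, plus strand: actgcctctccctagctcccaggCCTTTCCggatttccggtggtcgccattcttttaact
Rpl3l, chr17:24727796-24727855, plus strand: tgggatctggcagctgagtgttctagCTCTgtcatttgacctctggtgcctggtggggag
Rps10 had a run of 13 pyrimidines, Rps27l and Rps27 of 9, Rps21 and Rpl39l of 7, Rpl3l of 4 and Rpl36al of 3. RefSeq lists a second start for Rps21, Rps27l and Rpl3l, which is not shown.

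Genes that work with the ribosome were read from lists chosen by their roles. Rpl22l1, the paralogue of Rpl22, is not a member by its symbol and had 32.5 and 44.2 CPM in submandibular gland against 22.3 and 14.5 CPM in P18 parotid and did not pass the test (1.06 ± 0.39, adjusted p = 0.0898, edgeR). Of 10 elongation genes, 1 rose and 1 fell in submandibular gland, beside 10.2% of all genes tested higher and 14.2% lower. Eef1d, an exchange factor subunit, rose with 93.8 and 107 CPM in submandibular gland against 69.3 and 56.2 CPM in P18 parotid (0.68 ± 0.21, adjusted p = 0.0496, edgeR). Eef1a2, the elongation factor isoform of muscle and neurons, fell with 0.888 and 0.806 CPM in submandibular gland against 5.49 and 23.2 CPM in P18 parotid (-4.07 ± 1.18, adjusted p = 0.0438, edgeR). Like Rpl3l, it was higher in the libraries with more muscle marker RNA within P18 parotid and within adult parotid, where it had 4.31, 14.6 and 40.8 CPM, and the part of muscle RNA was not tested. Its widespread counterpart Eef1a1 had 5499 and 6539.6 CPM in submandibular gland against 4670.4 and 4021.5 CPM in P18 parotid and did not pass the test (0.47 ± 0.50, adjusted p = 0.524, edgeR).

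Initiation factors had 1 of 26 higher and 0 lower in submandibular gland, Eif2s2, a subunit of the factor that delivers the initiator tRNA, at 0.66 ± 0.18 (adjusted p = 0.0377, edgeR). Ribosome biogenesis had 3 of 38 higher and 0 lower, among them the nucleolar genes Wdr75 at 0.62 and Tsr1 at 0.78 (adjusted p = 0.0367 and 0.0381, edgeR). The S6 kinase and mTOR list had 1 of 16 higher, 3 lower and 12 that did not pass the test, with a median of -0.36, beside 10.2% of all genes higher and 14.2% lower. Rps6ka6 was at 1.31, and Rps6ka3 and Rps6ka5 at -1.05 and -1.34 (adjusted p = 0.0248, 0.0135 and 0.0164, edgeR). These are kinases of the RSK and MSK families and not ribosomal proteins, despite their symbols. Of 76 mitochondrial ribosomal protein genes, 0 rose and 3 fell, with a median of -0.26. Mrps9 had 11.1 and 10.9 CPM in submandibular gland against 20.3 and 41.5 CPM in P18 parotid, and Mrps36 had 8.64 and 9.45 CPM in submandibular gland against 18.7 and 64.1 CPM in P18 parotid (adjusted p = 0.0214 and 0.0314, edgeR). In both, P18 parotid replicate 2, the library with more muscle and adipocyte marker RNA, was the highest. With plain library sizes the medians of the elongation, initiation and biogenesis lists were -0.19, -0.29 and -0.30 and 0 of their members were called higher, and the kinase and mitochondrial medians were -0.96 and -0.84, beside -0.67 for all genes.

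In adult parotid, where 10.7% of all genes were higher and 15.1% lower, the same lists had the following counts, and no difference between lists was tested. Elongation had 2 of 10 higher and 0 lower, Eif5a, which relieves stalled ribosomes, at 0.89 ± 0.22 and Eef1d at 0.74 ± 0.19 (adjusted p = 0.0271 and 0.0301, edgeR). Initiation had 3 of 26 higher and 0 lower. Eif3f, a subunit of initiation factor 3, had 142, 107 and 90.7 CPM in adult parotid against 60.4 and 47.0 CPM in P18 parotid (1.08 ± 0.25, adjusted p = 0.0215, edgeR). Eif4ebp1, a repressor of cap-dependent translation and target of mTOR, had 90.6, 92.6 and 91.4 CPM in adult parotid against 38.9 and 56.6 CPM in P18 parotid (0.94 ± 0.20, adjusted p = 0.0163, edgeR). Biogenesis had 4 of 38 higher and 2 lower: Nob1, which matures the small-subunit RNA, and the methyltransferase Fbl were at 1.23 and 1.08, and Utp20 and the RNA polymerase I subunit Polr1a at -1.07 each (adjusted p = 0.0116, 0.0175, 0.00884 and 0.0123, edgeR). The S6 kinase and mTOR list had 1 of 16 higher and 6 lower. Mtor itself had 47.8, 38.6 and 46.3 CPM in adult parotid against 87.0 and 142 CPM in P18 parotid (-1.37 ± 0.24, adjusted p = 0.00961, edgeR), and Rps6ka3 10.8, 10.5 and 13.3 CPM in adult parotid against 33.0 and 33.9 CPM in P18 parotid (-1.54 ± 0.18, adjusted p = 0.00311, edgeR). Rheb, which activates mTOR, was the gene called higher, at 0.69 (adjusted p = 0.0455, edgeR). Mitochondrial ribosomal proteins had 1 of 76 higher and 3 lower, among them Mrpl52 at 1.07 and Mrpl35 and Mrpl15 at -0.90 and -0.97 (adjusted p = 0.0107, 0.0265 and 0.0371, edgeR), with a median of -0.26 against 0.51 for the cytosolic members. With plain library sizes the medians of all 5 of these lists were negative, between -0.83 and -1.69, none of their genes was called higher, and the differences of Eif5a, Eef1d, Eif3f, Eif4ebp1, Nob1, Fbl, Rheb and Mrpl52 were negative, beside the all-gene median of -1.24.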

How the data were processed

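The authors deposited raw counts per gene symbol and TPM; the TPM equal counts divided by a fixed gene length and rescaled in every library. The submitters' processing notes name build mm9 and, without role or order, DESeq2 1.20.0, featureCounts 1.5.1, Bowtie2 2.2.6 and TopHat2 2.1.1. Per the labels' protocols, polyadenylated RNA was prepared with an Illumina TruSeq kit. Settings for strand and multi-mapping reads are not given there. A further 2 columns of the counts fit no labelled sample and were left out.

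Genes were tested on the deposited counts with edgeR 4.0.16 (R 4.3.3; TMM, filterByExpr with minimum count 10 and total 15, glmQLFit and glmQLFTest, Benjamini-Hochberg over 15129 genes, threshold 0.05) with all 3 groups fitted together (residual degrees of freedom 4). Standard errors were derived from the F statistic, and folds are log2 differences. The procedure was tested on simulated data. Alternatives were DESeq2 1.42.0, limma 3.58.1 on log2(TPM + 1), other scalings and filters, a replicate block and leaving out libraries. Replicates differed by more than sampling noise, with a chi-square of at least 13.3 per degree of freedom (genes with 10 or more counts).

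Members, lists and tests were chosen with earlier results of these data known. Named members are those called, the 6 highest and 6 lowest by TPM, paralogue forms with their partners, and the 3 largest and smallest differences per comparison. From each list the rule took the 2 genes with the smallest adjusted p per direction; Rpl22l1 and Eef1a1 were named after their values were seen. Sequences came from another build than the counts and were matched by symbol only.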

Additional observations from a re-analysis of the deposited data

How the results depend on the processing

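The count of members called in submandibular gland was 4 and became 2 when scaled to the members' summed counts, 12 with DESeq2, 1 with only the 2 groups compared and 0 to 9 when each library was left out in turn. Without P18 parotid replicate 2 and adult parotid replicate 1 together, chosen after seeing the data, it was 28. Adult parotid had 5 members called. This became 48 (all lower) with plain library sizes, 0 scaled to the members' sum (2 at an unadjusted p under 0.05), 3 without a filter, 17 with DESeq2, 75 (all lower) with limma on log2(TPM + 1), 1 with only the 2 groups compared, 1 to 9 leaving out each library and 11 without both libraries. The members' median was -0.083 (submandibular) and -0.75 (adult) with plain library sizes, -0.0011 and 0.0054 scaled to their sum, and -0.39 and -1.41 on log2(TPM + 1). Scaling to their sum takes out the members' common level, so a median near 0 follows from that scaling. It called 2.84% of all genes higher and 21.1% lower in submandibular gland, and 2.7% and 21% in adult parotid. With only the 2 groups compared these shares were 3.74% and 5.48% in submandibular gland, and 5.15% and 9.58% in adult parotid. Over all genes, calls went to 5967 (8.71% higher) in submandibular gland with plain library sizes, against 3686 (41.7% higher) with TMM, and to 10957 (1.52% higher) in adult parotid, against 3915 (41.5% higher). Without the 50 most abundant genes the share of the other 79 members was 6.08% in submandibular gland and 6.16% in adult parotid. Plain library sizes differ from TMM only in the library totals, so that shift applies to all genes alike; other causes were not tested.

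The labels give groups the same replicate numbers, but same-numbered libraries did not deviate together throughout (correlations of -0.0174 to 0.239), so the numbers were not taken as pairs. With the replicate block 4 members were called in submandibular gland, beside 6.25% of all genes higher and 10.5% lower. In adult parotid 0 were called (12 at an unadjusted p under 0.05), beside 3.87% of all genes higher and 6.02% lower.

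Among values called on at least 1 of the scales compared, signs reversed for adult minus P18 parotid only, while all-gene medians moved to -1.24 (plain library sizes) and -1.48 (log2(TPM + 1)). With plain library sizes the log2 differences were Rpl29 -0.51, Rpl3 -1.20, Rpl36a -0.82, Rpl36al -0.076, Rpl41 -0.99, Rps10 -0.23, Rps12 -0.78, Rps18 -0.81, Rps21 -0.34, Rps23 -1.21, Rps27l -0.67 and Rps4x -0.74. On log2(TPM + 1) they were Rpl10 -0.99, Rpl29 -1.16, Rpl3 -1.85, Rpl34 -0.23, Rpl36a -1.51, Rpl36al -0.72, Rpl39 -1.33, Rpl41 -1.66, Rplp1 -1.22, Rps10 -0.92, Rps12 -1.43, Rps15a -1.16, Rps18 -1.49, Rps21 -1.001, Rps23 -1.87, Rps27 -1.04, Rps27l -1.35 and Rps4x -1.39. In submandibular gland minus P18 parotid, named members that were called on neither scale changed sign with plain library sizes, among them Rpl3 and Rps12 at -0.28, Rps27 at -0.31, Rps15a at -0.16 and Rps18 at -0.13. Over all alternatives, the values of named members kept direction and call in 309 cases of the submandibular comparison, gained a call in 15, lost it in 19, changed sign without a call in 31 and reversed in 0. The adult comparison had 261, 12, 39, 32 and 30 such cases. Depth limits Rpl30, Rps27, Rpl34, Rpl3l and Rpl39l, whose counts are few.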
